A study of Mus musculus with 8 samples.

Results

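The genes described here encode enzymes that oxidize, reduce, hydrolyse or conjugate foreign chemicals and many lipids of the body, measured in lungs of mice with and without nitric oxide synthases. They were chosen by symbol: the cytochrome P450 (Cyp), aldehyde dehydrogenase (Aldh), alcohol dehydrogenase (Adh), carboxylesterase (Ces), flavin-containing monooxygenase (Fmo), UDP-glucuronosyltransferase (Ugt), sulfotransferase (Sult), carbonyl reductase (Cbr) and epoxide hydrolase (Ephx) families and the Akr1 aldo-keto reductases. A mean of at least 1 count per 1000000 reads (CPM) over the 8 libraries was required, and Cyp2f2, Cyp26b1, Cyp51, Aldh1a1, Aldh1a2 and Adh5 were left out by name. Of 84 genes with such a symbol 69 were members, out of 15728 genes in the table, and 9 stayed below the mean. Just outside stood Ces2b at 0.892 CPM and Aldh1b1 at 0.873 CPM, and just inside Ces1f at 1.19 CPM and Akr1c12 at 1.43 CPM.

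Lungs of 4 wild type mice were compared with those of 4 triply n/i/eNOSs-/- mice, in which the neuronal, inducible and endothelial forms of nitric oxide synthase are deleted. All 8 mice had the strain background C57BL/6J, were 4 weeks old and were unexposed. The labels do not say how the alleles were made, nor the sex, litter or hour of collection. CAGE (cap analysis of gene expression) libraries hold the 5′ ends of capped RNA, so a CPM value counts transcript starts and does not grow with transcript length.

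Enzymes of foreign compound metabolism work in steps. P450s, flavin monooxygenases, dehydrogenases, reductases and hydrolases add or expose a reactive group, and sulfotransferases and glucuronosyltransferases attach a polar group that speeds excretion. Microsomal P450s carry heme and take electrons from the reductase Por, and in lung several of these enzymes are known from club cells, alveolar type 2 cells and endothelium.

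Library totals recovered from the CPM steps were 15598154 to 18593913 reads in wild type and 13014134 to 15096188 reads in the knockout, so each knockout library was shallower than each wild type library. A gene at 3 reads stood at 0.161 to 0.231 CPM, a floor that covers counting error only. Nos3 averaged 19.8 ± 2.06 CPM in wild type lungs and 7.37 ± 1.49 CPM in knockout lungs (SD, n = 4 each), and which part of it was deleted is not given. The club cell marker Scgb1a1 (83216 ± 9650.2 and 89789.8 ± 11499.9 CPM) and the alveolar type 2 marker Sftpc (75406 ± 7581 and 40739 ± 4973 CPM) were high, while the 3 listed hepatocyte markers summed to 0.480 to 1.61 CPM in wild type and 0.210 to 0.530 CPM in knockout libraries. In these bulk samples fewer cells of a type and less RNA per cell cannot be told apart.

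Of the 69 enzyme genes, 8 rose and 13 fell in the knockout at a limma adjusted p under 0.05. These were 30.4% of the genes, and 30.9% of all 14065 genes tested were called (16.6% higher and 14.3% lower), so the share was near that of the whole table. The median size of the log2 fold change, sign aside, was 0.18 for the enzyme genes and 0.19 for all genes tested. Adh7 passed a change of 1 on the log2 scale in the limma fit, as did Ces1f. Ces1f, counted among the 13, met the filters only through its wild type libraries, so it could only be lower. It lends no support to that count or to the lower counts that follow here, which also hold it. Libraries of the genotypes did not overlap for 6 higher and 15 lower enzyme genes, against 16.8% and 14.3% of all genes tested (31.2% in either direction). On the recovered reads edgeR called 6 higher and 15 lower, where it called 32.5% of all genes (16% and 16.5%), and DESeq2 called 7 and 15, where it called 31.7% (15.6% and 16.1%). The split was 6 higher and 16 lower with median-ratio scaling, where 2237 and 2372 of all 14065 genes were called. It was 7 and 17 with quantile normalization, where 2381 and 2150 of all genes were called. The higher count was 4 without wild type replicate 2 (1841 of all genes), and 5 when replicate 3 or 4 of either genotype was left out (1741 to 2193 of all genes).

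**Figure D1:**
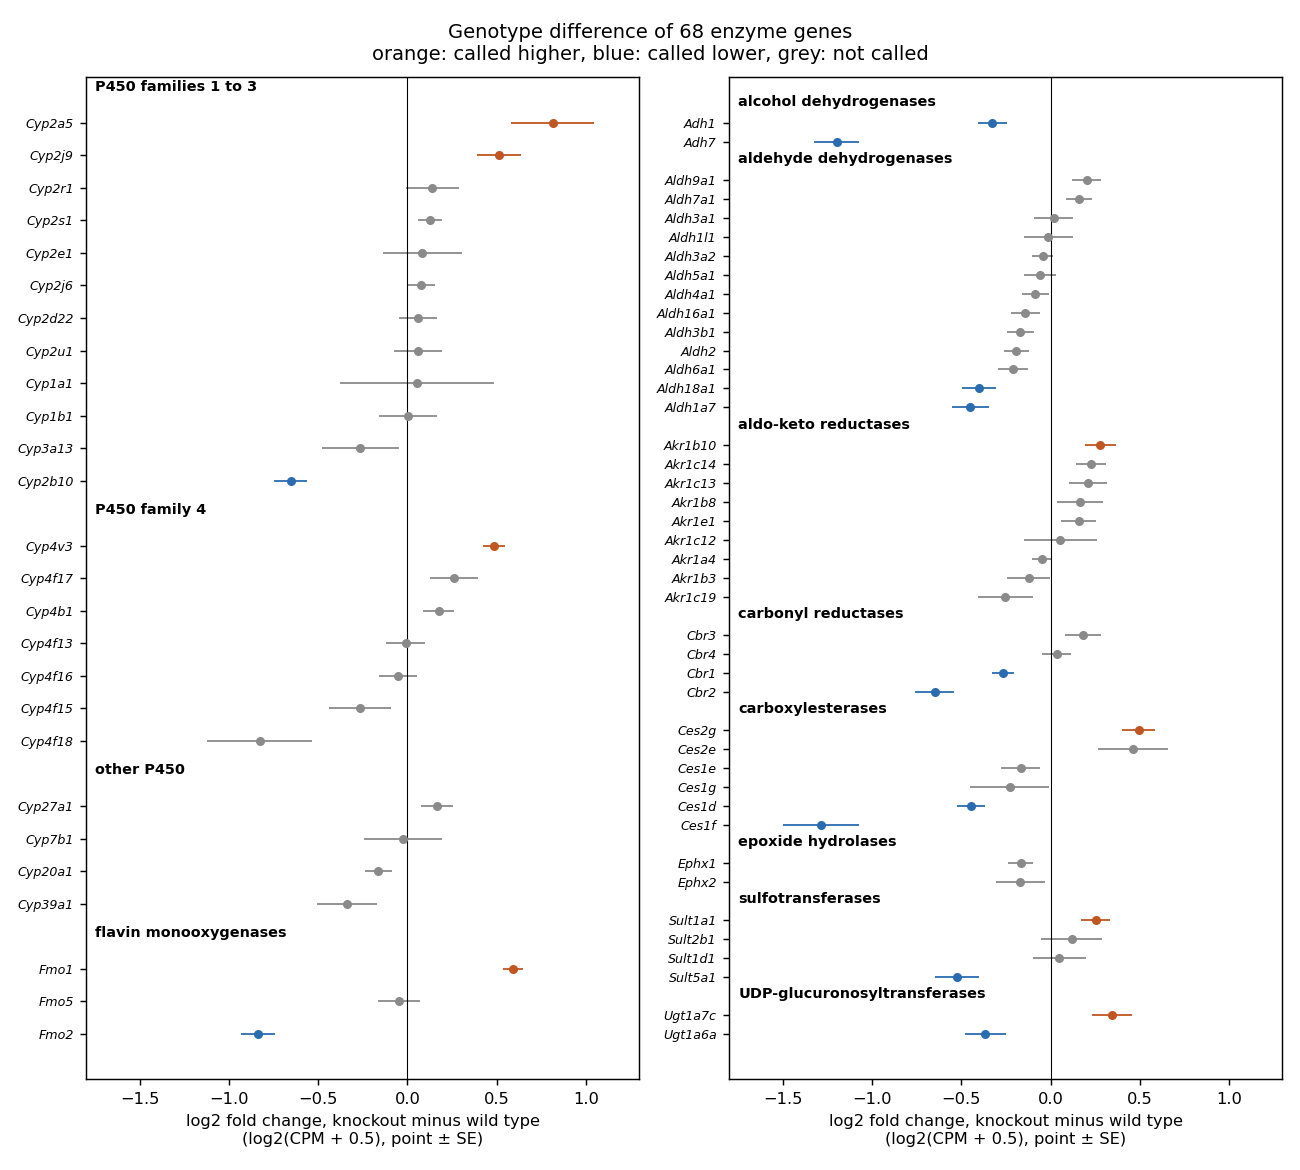
Log2 fold change (knockout minus wild type on log2(CPM + 0.5), horizontal axis) of 68 enzyme genes, by enzyme group, with bars of ± SE from the limma fit. Orange points (8) were called higher and blue points (12) lower. Called genes of P450 families 1 to 3 and of the Fmo, Ces, Sult and Ugt groups lie on both sides of 0.

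Summed over the members, the enzymes took 1.41% of reads in wild type (14129.8 ± 627 CPM) and 1.02% in the knockout (10200.3 ± 1263 CPM). Cbr2 alone made up 71.1% to 71.7% of that sum in wild type libraries and 60.1% to 67.1% in knockout libraries. Reads of a close copy, named below, may be joined with those of Cbr2. Without Cbr2 the sums were 3777 to 4189 CPM and 3453 to 3848 CPM, which overlapped. The other members were modest in level: over all 69, 10 averaged above 100 CPM and 30 below 10 CPM.

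P450s of families 1 to 3 oxidize drugs, solvents and smoke components, and of 12 members 2 rose and 1 fell. Cyp2b10, known in liver as a target of the receptor CAR, was the most abundant of them at 187, 207, 225 and 223 CPM in wild type lungs and 152, 114, 141 and 129 CPM in knockout lungs. Every knockout library was below every wild type library, and the gene fell (log2 fold change -0.65, SE 0.093, limma adjusted p = 0.000539). Cyp2a5, which oxidizes coumarin and nicotine-derived nitrosamines, went the other way. It stood at 43.7, 29.5, 62.1 and 36.3 CPM in wild type lungs and 109, 52.8, 67.6 and 72.7 CPM in knockout lungs. Wild type replicate 3 lay above knockout replicate 2, so the genotypes overlapped (log2 fold change 0.81, SE 0.23, limma adjusted p = 0.0221). The call ended without wild type replicate 2 (adjusted p = 0.063) or 4 (adjusted p = 0.0596), within a range of 0.00891 to 0.063 over the alternatives. A transcript of Cyp2a4, which is not a listed gene, matched its 5′ part at 97% or more over 200 nt, so reads of the 2 genes may be joined in this value.

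Cyp2j9, of a subfamily that makes epoxides from arachidonic acid, stood at 4.49, 4.84, 6.0 and 6.15 CPM in wild type lungs and 6.82, 8.32, 8.21 and 7.99 CPM in knockout lungs. It rose, with no overlap (log2 fold change 0.51, SE 0.12, limma adjusted p = 0.00944), while its neighbour Cyp2j6 was not called at 17.4 ± 1.09 and 18.4 ± 0.677 CPM. Values paired in this way are the wild type and then the knockout mean ± SD (n = 4 each). The other P450s of these families were not called either, among them Cyp2s1 (70.03 ± 5.52 and 76.3 ± 3.08 CPM), Cyp2d22 (12.98 ± 0.784 and 13.6 ± 1.99 CPM) and Cyp2e1 (8.22 ± 3.02 and 8.48 ± 1.72 CPM). Cyp1a1, the classical target of the aryl hydrocarbon receptor, was picked out after its values were seen because its spread over knockout libraries was the widest of the 69 (SD 1.09 on the log2 scale, against a median of 0.15). It stood at 3.71, 5.70, 6.99 and 4.10 CPM in wild type lungs and 13.6, 1.76, 6.14 and 4.46 CPM in knockout lungs. Knockout replicate 1 was above and knockout replicate 2 below every wild type library (log2 fold change 0.06, SE 0.43, limma adjusted p = 0.933).

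Promoters are shown for P450 genes that rose, fell or varied most, since CAGE reads begin at transcript starts. Each line gives the 200 bases before a RefSeq start (build GRCm38.p6), 5′ to 3′ on the gene's strand. Capitals mark matches on either strand to 5 patterns, in which N is any base. They are the aryl hydrocarbon receptor core GCGTG, the antioxidant element TGACNNNGC, a loose D-box pattern TTANGTAA, the E-box CACGTG and the TATA box TATAAA. The gene table does not say at which base the CAGE reads began, and the submitters' notes name an earlier build.
Cyp2b10, chr7:25897458-25897657, plus strand: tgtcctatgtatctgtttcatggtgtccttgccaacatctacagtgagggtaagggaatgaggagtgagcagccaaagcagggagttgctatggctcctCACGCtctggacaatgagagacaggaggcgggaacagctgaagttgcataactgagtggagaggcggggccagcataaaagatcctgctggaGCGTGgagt
Cyp2a5, chr7:26835139-26835338, plus strand: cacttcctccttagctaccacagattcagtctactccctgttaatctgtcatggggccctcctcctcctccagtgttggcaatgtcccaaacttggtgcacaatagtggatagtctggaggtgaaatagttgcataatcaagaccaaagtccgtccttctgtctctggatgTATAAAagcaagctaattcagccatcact
Cyp1a1, chr9:57697413-57697612, plus strand: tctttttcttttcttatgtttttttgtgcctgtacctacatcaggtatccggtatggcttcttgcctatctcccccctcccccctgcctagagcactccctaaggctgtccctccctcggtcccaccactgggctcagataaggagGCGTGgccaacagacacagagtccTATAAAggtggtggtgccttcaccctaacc
Cyp4v3, chr8:45333164-45333363, minus strand: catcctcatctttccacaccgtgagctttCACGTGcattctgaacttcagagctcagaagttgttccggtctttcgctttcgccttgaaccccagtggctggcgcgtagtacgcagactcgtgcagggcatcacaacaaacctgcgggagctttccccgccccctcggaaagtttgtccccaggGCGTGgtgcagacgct
Cyp2b10 held 2 receptor cores in opposite orientations, and Cyp4v3 held an E-box and a receptor core. Cyp2a5 and Cyp1a1 held a TATA box at 29 and 30 bases before the start, and Cyp1a1 also a receptor core. In full windows of 250 bases before to 50 after a start, GCGTG was found in 20 of 58 promoters of 55 matched members (34.5%) and in 32.4% of all 32851 promoters. TATAAA was found in 10 of 58 (17.2%, against 13.6%), CACGTG in 5 (8.62%, against 7.15%), TGACNNNGC in 4 (6.90%, against 12.4%) and TTANGTAA in 3 (5.17%, against 2.32%). Of promoters of genes that rose 2 of 7 held GCGTG, of those that fell 4 of 11, and of the rest 14 of 40. GCGTG and CACGTG can share bases, and a match describes letters only.

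Family 4 P450s hydroxylate fatty acids and eicosanoids, and 1 of 7 members rose. Cyp4v3 stood at 54.7, 49.9, 49.2 and 49.8 CPM in wild type lungs and 75.3, 68.2, 72.7 and 69.5 CPM in knockout lungs. The groups were well apart (log2 fold change 0.49, SE 0.063, limma adjusted p = 0.000296). Cyp4b1, which activates the lung toxin ipomeanol and was the most abundant P450 of the members, stood at 449, 474, 493 and 482 CPM in wild type lungs and 609, 443, 553 and 549 CPM in knockout lungs. Knockout replicate 2 lay below all wild type libraries and the other knockout libraries above them (log2 fold change 0.17, SE 0.087, limma adjusted p = 0.152). It passed the threshold without knockout replicate 2 (adjusted p = 0.0125, range 0.0125 to 0.529). A transcript of Cyp4b1-ps1, which is not a listed gene, closely matched the 5′ part of Cyp4b1 over 124 nt. Reads of this copy may therefore be joined in the values of Cyp4b1.

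Cyp4f18, which inactivates leukotriene B4 in neutrophils, was also picked out after its values were seen. It stood at 13.3, 12.8, 10.5 and 11.8 CPM in wild type lungs and 3.05, 10.01, 10.5 and 5.61 CPM in knockout lungs. The lowest wild type value was 10.51 CPM and the highest knockout value 10.49 CPM, so the genotypes narrowly did not overlap, and the gene missed the threshold (log2 fold change -0.83, SE 0.3, limma adjusted p = 0.0535), passing it without knockout replicate 2 or 3 and with median-ratio scaling (range 0.025 to 0.114). Zfp961 overlaps it on the opposite strand, and Cyp4f13, Cyp4f15, Cyp4f16 and Cyp4f17 were not called.

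None of the 4 other P450s was called by limma, edgeR or DESeq2, and 0 had an unadjusted p under 0.05. They were Cyp27a1 (means of 13.99 and 15.7 CPM) and Cyp7b1 (2.46 ± 0.527 and 2.49 ± 0.895 CPM), which hydroxylate sterols, Cyp39a1 (7.73 ± 1.37 and 6.04 ± 1.23 CPM) and Cyp20a1. Cyp20a1, the highest, stood at 24.9, 25.3, 24.2 and 23.5 CPM in wild type lungs and 24.2, 21.4, 20.01 and 21.8 CPM in knockout lungs, with overlap (log2 fold change -0.16, SE 0.076, limma adjusted p = 0.123).

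**Figure D2:**
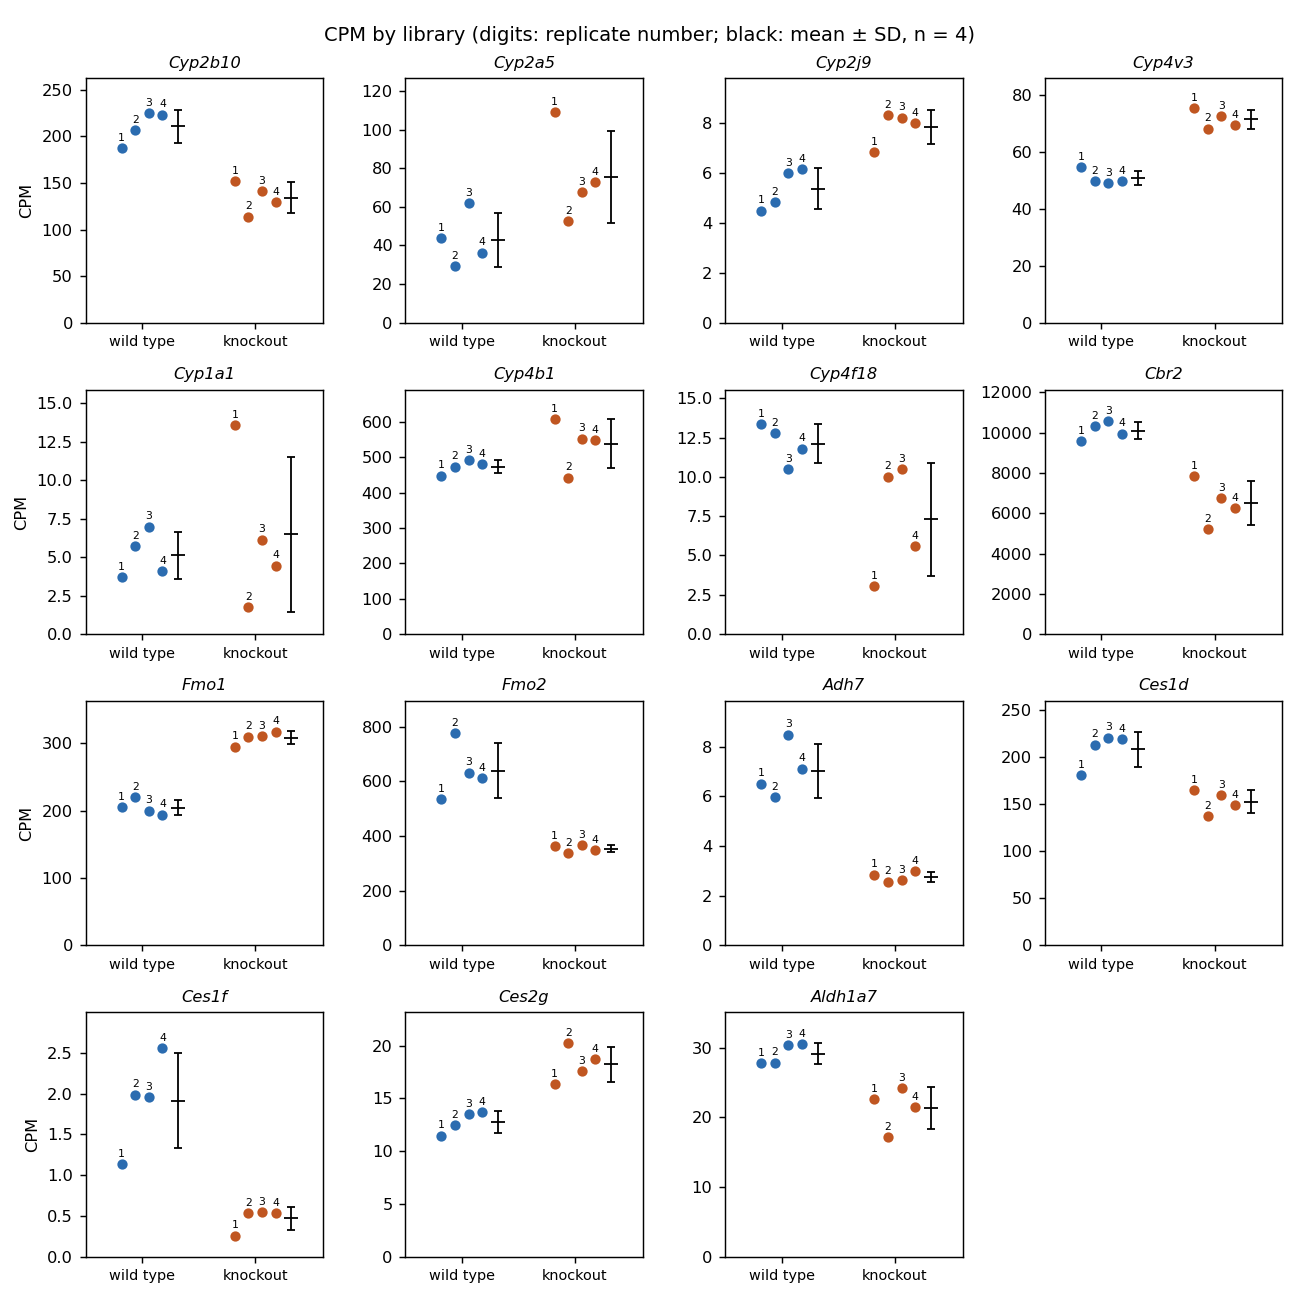
CPM (vertical axes, linear and starting at 0) of 15 enzyme genes in each library, blue for wild type and orange for knockout, with replicate numbers beside the points and mean ± SD (n = 4) in black. Fmo1, Fmo2, Cbr2 and Adh7 separate the genotypes, whereas Cyp1a1 ranges from 1.76 to 13.6 CPM within the knockout.

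Flavin monooxygenases oxidize nitrogen and sulfur in drugs and amines, and Fmo1 and Fmo2 changed in opposite directions. Fmo2, the main form in lung, stood at 535, 776, 632 and 613 CPM in wild type lungs and 363, 338, 367 and 349 CPM in knockout lungs. It fell with no overlap, and its knockout libraries were closer together than its wild type libraries (log2 fold change -0.84, SE 0.095, limma adjusted p = 0.000123). Fmo1, its neighbour in the genome, stood at 205, 219.6, 199.9 and 194 CPM in wild type lungs and 295, 309.9, 310.3 and 317 CPM in knockout lungs. It rose, with the smallest adjusted p of the 69 genes in the limma fit (log2 fold change 0.59, SE 0.057, limma adjusted p = 3.58e-05). Fmo5 was not called at 8.27 ± 0.813 and 8.0 ± 1.16 CPM.

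The balance between related genes was measured as a ratio within each library, for 4 pairs chosen after their values were seen. Fmo1 over Fmo2 was 0.283 to 0.383 in wild type and 0.813 to 0.918 in the knockout. Cyp2a5 over Cyp2b10 was 0.143 to 0.276 and 0.464 to 0.715. Each knockout ratio of these 2 pairs was above each wild type ratio, and Cyp2j9 over Cyp2j6 overlapped, at 0.260 to 0.384 and 0.366 to 0.460. The choice of the pairs fixed their direction, so the ratios are a description with no test.

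**Figure D3:**
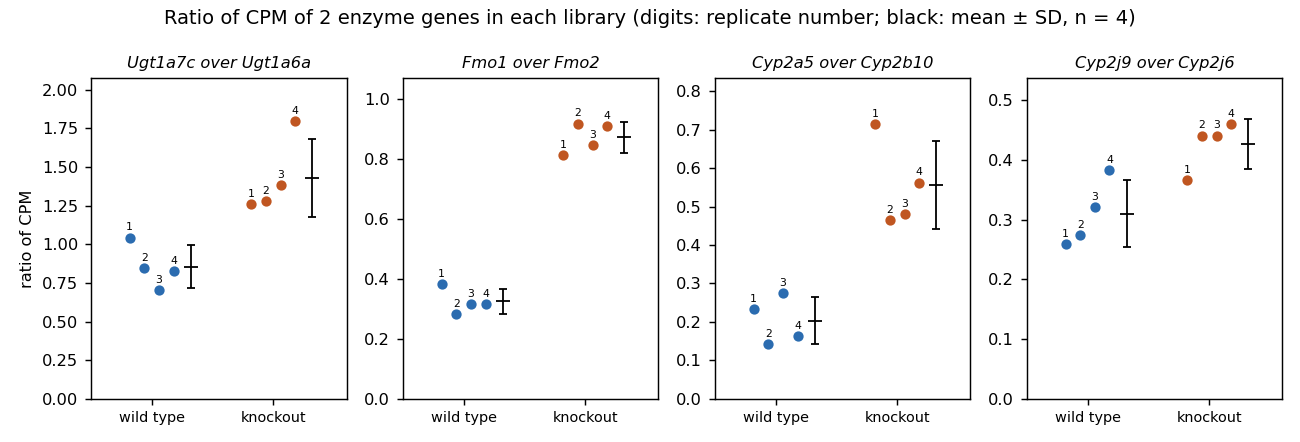
Ratio of the CPM of 2 enzyme genes in each library (vertical axes, linear, starting at 0), blue for wild type and orange for knockout, with mean ± SD (n = 4) in black. The ratios of Fmo1 to Fmo2, of Cyp2a5 to Cyp2b10 and of Ugt1a7c to Ugt1a6a separate the genotypes, and those of Cyp2j9 to Cyp2j6 overlap.

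Adh1 and Adh7, the 2 alcohol dehydrogenases among the members (Adh5 was left out by name), both fell. Adh7, which also oxidizes retinol, stood at 6.52, 5.97, 8.49 and 7.12 CPM in wild type lungs and 2.85, 2.57, 2.62 and 3.0 CPM in knockout lungs. Its knockout mean was 39.3% of the wild type mean (log2 fold change -1.20, SE 0.12, limma adjusted p = 6.72e-05). Adh1, its neighbour and the classical ethanol dehydrogenase, stood at 151, 174, 181 and 153 CPM in wild type lungs and 119, 139, 125 and 141 CPM in knockout lungs. The groups did not overlap, and the fall was smaller (log2 fold change -0.33, SE 0.08, limma adjusted p = 0.0107).

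Aldehyde dehydrogenases clear aldehydes from lipid peroxidation, ethanol and amino acid breakdown, and 2 of 13 fell. Aldh1a7, a close relative of the retinal dehydrogenase Aldh1a1, stood at 27.8, 27.9, 30.4 and 30.4 CPM in wild type lungs and 22.6, 17.2, 24.1 and 21.4 CPM in knockout lungs (log2 fold change -0.45, SE 0.1, limma adjusted p = 0.00708). Aldh18a1, which makes a precursor of proline, stood at 7.24, 7.58, 8.14 and 8.33 CPM in wild type lungs and 5.76, 6.15, 5.93 and 5.38 CPM in knockout lungs (log2 fold change -0.40, SE 0.095, limma adjusted p = 0.00896). Neither overlapped between genotypes. Aldh2, the mitochondrial enzyme for acetaldehyde and the most abundant of the group, stood at 388, 402, 435 and 381 CPM in wild type lungs and 386, 332, 365 and 325 CPM in knockout lungs. Knockout replicate 1 lay within the wild type range, and the gene missed the threshold (log2 fold change -0.19, SE 0.07, limma adjusted p = 0.0594). It passed without knockout replicate 1 (adjusted p = 0.0237), with the replicate block (adjusted p = 0.0452), with both other scalings and with edgeR and DESeq2 (range 0.00615 to 0.155). Both edgeR and DESeq2 called 4 genes of the group, and among those not called by limma were Aldh3a1 (12.1 ± 1.08 and 12.3 ± 1.67 CPM) and Aldh3a2 (67.2 ± 2.97 and 65.1 ± 2.56 CPM).

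Aldo-keto reductases of the Akr1 group reduce aldehydes, steroids and prostaglandins, and 1 of 9 was called. Akr1b10 stood at 19.4, 19.04, 19.2 and 18.4 CPM in wild type lungs and 19.7, 23.5, 24.9 and 24.97 CPM in knockout lungs. Knockout replicate 1 was barely above wild type (log2 fold change 0.28, SE 0.087, limma adjusted p = 0.0312), and each library but knockout replicate 1 was needed for the call (range 0.00502 to 0.0885). Akr1a4, current symbol Akr1a1 and the most abundant, stood at 355, 366, 379 and 368 CPM in wild type lungs and 334, 373, 354 and 360.2 CPM in knockout lungs, which overlapped (log2 fold change -0.05, SE 0.054, limma adjusted p = 0.533). Akr1c12 and Akr1c13 share 5′ transcript sequence at 97% or more over 200 nt, and their levels of 1.41 ± 0.497 and 1.44 ± 0.237 CPM and 5.32 ± 0.468 and 6.23 ± 0.562 CPM are uncertain for that reason.

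Carbonyl reductases turn quinones and ketones into alcohols, and 2 of 4 fell. Cbr2, a mitochondrial enzyme abundant in mouse lung, had rank 4 in mean level among all genes of the table. It stood at 9564, 10311, 10558 and 9954 CPM in wild type lungs and 7849.8, 5206, 6734 and 6241 CPM in knockout lungs. No library overlapped, and the mean was 64.5% of wild type (log2 fold change -0.65, SE 0.11, limma adjusted p = 0.00155). A transcript of Gm11771, which is not a listed gene, closely matched the 5′ part of Cbr2 over 129 nt. Reads of this copy may therefore be joined in the values of Cbr2. Summed alveolar type 2 markers were 84534 to 101196 CPM in wild type and 51343 to 63136 CPM in knockout libraries, and the sum of club cell markers overlapped (86720.1 to 107761 and 83257 to 113119.9 CPM). Sftpc and Scgb1a1 make up most of these sums, and the median log2 fold changes of the lists were -0.26 for type 2 and -0.27 for club cell markers, against 0.01 for all genes. Of the type 2 markers Abca3 rose (165 ± 7.49 and 313 ± 21.5 CPM), while Sftpb, Lamp3 and Etv5 were not called. Their part in the level of Cbr2 was not tested. The promoter is shown because this is the member with the most reads, and the 200 bases held none of the 5 motifs.
Cbr2, chr11:120732022-120732221, minus strand: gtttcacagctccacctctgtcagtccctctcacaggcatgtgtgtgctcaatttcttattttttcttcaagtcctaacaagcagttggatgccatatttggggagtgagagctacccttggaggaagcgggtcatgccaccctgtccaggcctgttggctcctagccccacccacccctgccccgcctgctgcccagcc
Cbr1, a cytosolic reductase of quinones and prostaglandins, stood at 53.4, 54.1, 53.7 and 50.7 CPM in wild type lungs and 41.7, 45.2, 46.9 and 42.3 CPM in knockout lungs and fell without overlap (log2 fold change -0.27, SE 0.063, limma adjusted p = 0.00925). Its neighbour Cbr3 (25.98 ± 2.82 and 29.5 ± 3.17 CPM) and Cbr4 (19.8 ± 0.972 and 20.3 ± 1.64 CPM) were not called.

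Carboxylesterases cleave ester drugs and lipids, and of 6 members 1 rose and 2 fell. Ces1d, the most abundant, stood at 181, 213, 220.4 and 219 CPM in wild type lungs and 165, 137, 159.7 and 149 CPM in knockout lungs and fell without overlap (log2 fold change -0.45, SE 0.081, limma adjusted p = 0.00222). Ces1f stood at 1.14, 1.99, 1.96 and 2.56 CPM in wild type lungs and 0.260, 0.540, 0.550 and 0.540 CPM in knockout lungs. All knockout values were a few reads and below 1 CPM, so the gene met the filters on level only through wild type. Its difference is therefore a description (log2 fold change -1.29, from -2.04 to -0.97 over the alternatives). Ces1e (9.52 ± 0.834 and 8.45 ± 1.10 CPM) and Ces1g (2.63 ± 0.895 and 2.12 ± 0.478 CPM) of the same cluster were not called. Ces2g, of the other subfamily, stood at 11.5, 12.5, 13.5 and 13.7 CPM in wild type lungs and 16.4, 20.2, 17.6 and 18.8 CPM in knockout lungs and rose without overlap (log2 fold change 0.49, SE 0.093, limma adjusted p = 0.00271). Its neighbour Ces2e, at 2.38 ± 0.390 and 3.56 ± 0.994 CPM, was called when knockout replicate 1 was left out (adjusted p = 0.00687, against 0.0942, range 0.00687 to 0.212).

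Neither of the 2 epoxide hydrolases was called: limma, edgeR and DESeq2 called 0, and 1 had an unadjusted p under 0.05. Ephx1, the microsomal enzyme that opens epoxides of smoke hydrocarbons, stood at 239, 263, 269 and 255 CPM in wild type lungs and 235, 200.5, 240.4 and 238 CPM in knockout lungs, with overlap (log2 fold change -0.17, SE 0.071, limma adjusted p = 0.0935). It passed with quantile normalization (adjusted p = 0.0333, range 0.0333 to 0.217). Ephx2, the soluble hydrolase of fatty acid epoxides, was at 1.93 ± 0.187 and 1.66 ± 0.208 CPM.

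Sulfotransferases attach sulfate, and of 4 members 1 rose and 1 fell. Sult1a1, which acts on phenols, stood at 57.5, 59.05, 50.2 and 59.9 CPM in wild type lungs and 64.4, 62.5, 67.6 and 76.4 CPM in knockout lungs. The groups did not overlap (log2 fold change 0.25, SE 0.081, limma adjusted p = 0.035), yet the call ended in 10 of 18 alternatives (range 0.0287 to 0.0968). These were the runs that left out replicate 1, 2 or 3 of wild type or replicate 3 or 4 of the knockout, both other scalings, the fit with no variance trend, edgeR and DESeq2. Ccdc101 overlaps it on the opposite strand. Its promoter is shown because among the promoters of called members it alone matched TTANGTAA, the pattern used here for the D-box. Of 40 promoters of members not called, 2 matched it. The pattern allows any base at N, so a match need not be a D-box. In Sult1a1 the matched letters were TTAGGTAA. Whether any factor binds there was not tested.
Sult1a1, chr7:126676419-126676618, minus strand: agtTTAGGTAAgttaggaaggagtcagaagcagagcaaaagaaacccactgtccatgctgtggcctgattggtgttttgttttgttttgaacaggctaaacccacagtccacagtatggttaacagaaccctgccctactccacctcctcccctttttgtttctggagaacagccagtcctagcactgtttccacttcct
Sult5a1 stood at 5.38, 4.68, 4.62 and 4.23 CPM in wild type lungs and 3.51, 2.91, 2.76 and 3.38 CPM in knockout lungs and fell without overlap (log2 fold change -0.52, SE 0.12, limma adjusted p = 0.00827), and Gm20388 overlaps it on the opposite strand.

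The 2 glucuronosyltransferases come from the Ugt1a locus, in which separate first exons join shared later exons. Ugt1a6a stood at 10.8, 11.7, 14.7 and 12.6 CPM in wild type lungs and 10.7, 8.52, 10.2 and 8.68 CPM in knockout lungs. It fell, with a narrow gap between the genotypes (log2 fold change -0.37, SE 0.11, limma adjusted p = 0.0324). Ugt1a7c stood at 11.3, 9.90, 10.3 and 10.4 CPM in wild type lungs and 13.5, 10.9, 14.2 and 15.6 CPM in knockout lungs. It rose, with overlap (log2 fold change 0.34, SE 0.11, limma adjusted p = 0.0342). Their sum was 22.9 ± 1.49 CPM in wild type lungs and 23.1 ± 2.44 CPM in knockout lungs, and the ratio of Ugt1a7c to Ugt1a6a was 0.705 to 1.04 and 1.26 to 1.80. Annotated transcripts of both share 5′ sequence at 97% or more over 200 nt, so a change of promoter and another division of the same reads cannot be told apart. Ugt1a6b, a listed gene with a mean of 0.39 CPM, also shares such sequence with both and overlaps them on the same strand. Dnajb3 overlaps both on the opposite strand. The call of Ugt1a6a ended on leaving out replicate 2, 3 or 4 of wild type, or replicate 2 or 4 of the knockout (range 0.0161 to 0.0922). That of Ugt1a7c ended on leaving out replicate 2, 3 or 4 of wild type, or replicate 1, 3 or 4 of the knockout, with median-ratio scaling and with edgeR (range 0.00703 to 0.0865). The promoters are shown because the 2 genes went in opposite directions, and neither held a motif.
Ugt1a6a, chr1:88134609-88134808, plus strand: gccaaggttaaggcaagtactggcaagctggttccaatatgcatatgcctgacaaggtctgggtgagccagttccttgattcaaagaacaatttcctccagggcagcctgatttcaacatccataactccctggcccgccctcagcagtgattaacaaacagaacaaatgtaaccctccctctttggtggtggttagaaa
Ugt1a7c, chr1:88094801-88095000, plus strand: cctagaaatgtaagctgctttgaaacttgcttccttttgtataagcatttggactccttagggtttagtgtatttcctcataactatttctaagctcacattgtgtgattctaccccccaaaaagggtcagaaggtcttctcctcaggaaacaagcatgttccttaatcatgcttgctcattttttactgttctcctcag

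Other genes of the pathway came from 4 lists of 53 genes, of which 42 were tested, 7 rose and 9 fell, where 16.6% of all genes tested rose and 14.3% fell. Of 12 regulators tested 1 rose and 3 fell. Ahr, the aryl hydrocarbon receptor (63.8 ± 7.20 and 75.7 ± 20.6 CPM), its partner Arnt (58.9 ± 2.73 and 63.98 ± 3.54 CPM) and the oxidant sensor factor Nfe2l2 (88.1 ± 6.25 and 79.9 ± 4.52 CPM) were not called. Tiparp, which the receptor induces and which represses it, stood at 48.2, 49.3, 43.3 and 43.7 CPM in wild type lungs and 70.2, 56.1, 68.8 and 59.2 CPM in knockout lungs and rose (log2 fold change 0.46, SE 0.086, limma adjusted p = 0.00281). Dbp, Hlf and Tef, clock-driven factors known to act on P450 genes, Por and Alas1 in liver, all fell. Dbp stood at 97.8, 87.7, 96.02 and 79.3 CPM in wild type lungs and 40.3, 5.82, 6.21 and 4.69 CPM in knockout lungs, with knockout replicate 1 the least reduced (log2 fold change -3.22, SE 0.51, limma adjusted p = 0.00107). Hlf averaged 34.5 ± 2.73 and 4.52 ± 2.46 CPM (log2 fold change -2.91, SE 0.25, limma adjusted p = 1.66e-05) and Tef 161 ± 18.9 and 48.6 ± 18.1 CPM (log2 fold change -1.77, SE 0.19, limma adjusted p = 8.04e-05). The hour of collection is not in the labels, so it cannot be told apart from genotype in these values, and the part of these factors in the enzyme levels was not tested.

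Of 11 genes of electron transfer and heme, 3 fell and 0 rose, where 14.3% of all genes tested fell and 16.6% rose. Por, the electron donor of microsomal P450s, stood at 234, 219.6, 245 and 219 CPM in wild type lungs and 178, 141, 157 and 111 CPM in knockout lungs (log2 fold change -0.66, SE 0.12, limma adjusted p = 0.00216). Alas1, the rate-limiting enzyme of heme synthesis, stood at 194, 241, 253 and 202 CPM in wild type lungs and 182, 104, 139 and 95.6 CPM in knockout lungs (log2 fold change -0.81, SE 0.17, limma adjusted p = 0.00568). Both separated the genotypes. Hmox2, a heme oxygenase, averaged 64.8 ± 2.01 and 55.98 ± 1.90 CPM (log2 fold change -0.21, SE 0.058, limma adjusted p = 0.0182), a call that ended without wild type replicate 1 (adjusted p = 0.0539, range 0.011 to 0.0539). For Dbp, Por, Alas1 and Cyp2b10, which fell, and for Cyp2a5, which rose, knockout replicate 1 was the highest knockout library. The same held for 803 of all 2010 genes called lower and for 282 of all 2341 called higher. Among called enzyme genes it held for 6 of 13 lower and 2 of 8 higher. Whether the levels of these genes vary together between libraries was not tested.

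**Figure D4:**
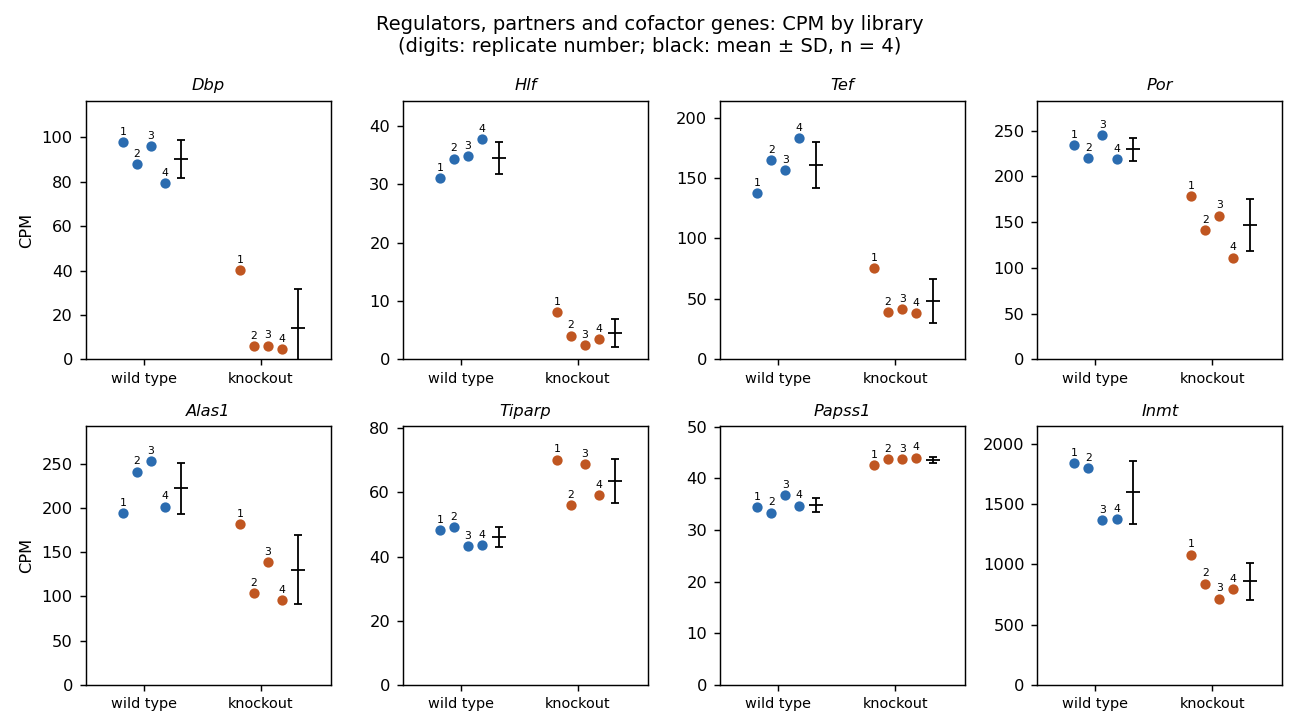
CPM (vertical axes, linear, starting at 0) of Dbp, Hlf, Tef, Por, Alas1, Tiparp, Papss1 and Inmt in each library, blue for wild type and orange for knockout, with mean ± SD (n = 4) in black. Knockout replicate 1 of Dbp stands at 40.3 CPM and the other 3 between 4.69 and 6.21 CPM, and the lower error bar there is cut at 0.

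Of 10 genes that supply or parallel conjugation 3 rose and 1 fell, beside 16.6% and 14.3% of all genes tested. Papss1, which makes the sulfate donor, averaged 34.8 ± 1.39 and 43.6 ± 0.615 CPM (log2 fold change 0.32, SE 0.06, limma adjusted p = 0.00277). Ugp2, which makes UDP-glucose, averaged 106 ± 3.62 and 129.6 ± 6.27 CPM (log2 fold change 0.28, SE 0.058, limma adjusted p = 0.00417). Nat2, an arylamine acetyltransferase, averaged 4.97 ± 0.638 and 6.24 ± 0.113 CPM (log2 fold change 0.31, SE 0.11, limma adjusted p = 0.0482), and its call ended when any library except wild type replicate 2 was left out, with no filter, with median-ratio scaling, with the replicate block (adjusted p = 0.0718) and with edgeR and DESeq2 (range 0.0241 to 0.136). Inmt, an amine methyltransferase that is also a fibroblast marker here, fell from 1596 ± 259.8 to 857 ± 157 CPM (log2 fold change -0.90, SE 0.14, limma adjusted p = 0.000767).

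Of 9 transporters tested 3 rose and 2 fell, beside 16.6% and 14.3% of all genes tested. The efflux pumps Abcb1b (4.34 ± 1.29 and 7.21 ± 0.962 CPM, limma adjusted p = 0.0109) and Abcc4 (2.93 ± 0.445 and 4.83 ± 0.535 CPM, limma adjusted p = 0.00455) and the uptake carrier Slco2b1 (9.87 ± 1.20 and 13.8 ± 1.18 CPM, limma adjusted p = 0.0074) rose. The pump Abcc1 fell (5.96 ± 1.07 and 4.46 ± 0.266 CPM, limma adjusted p = 0.0462), a call that ended when any library except wild type replicate 4 was left out, with no filter, with quantile normalization and with the replicate block (adjusted p = 0.0756, range 0.0352 to 0.127). The carrier Slco3a1 fell (56.3 ± 2.98 and 45.5 ± 7.27 CPM, limma adjusted p = 0.0395), and lost its call on leaving out any of the wild type libraries or knockout replicate 3 or 4, and with no variance trend (range 0.0072 to 0.1).

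Libraries of a genotype did not share the extremes evenly. Knockout replicate 2 was the lowest of the knockout for 32 of the 69 enzyme genes (46.4%), against 15.7% of all genes tested, and the highest for 12 (17.4%, against 37.7%). Knockout replicate 1 was the highest for 28 (40.6%, against 24.5%). Among wild type libraries replicate 1 was the lowest for 26 (37.7%, against 26.9%) and replicate 3 the highest for 26 (37.7%, against 33.0%). The median-ratio factor of knockout replicate 2 was 1.05, the highest of the 8 libraries, which ranged from 0.966 to 1.05. Summed P450s of families 1 to 3 were 417, 298, 353 and 341 CPM in knockout replicates 1 to 4, against 356 to 428 CPM in wild type. Without knockout replicate 2 the called members were 9 higher and 13 lower (1909 and 2021 of all genes), and without replicate 1 they were 9 and 15 (2387 and 2100).

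**Figure D5:**
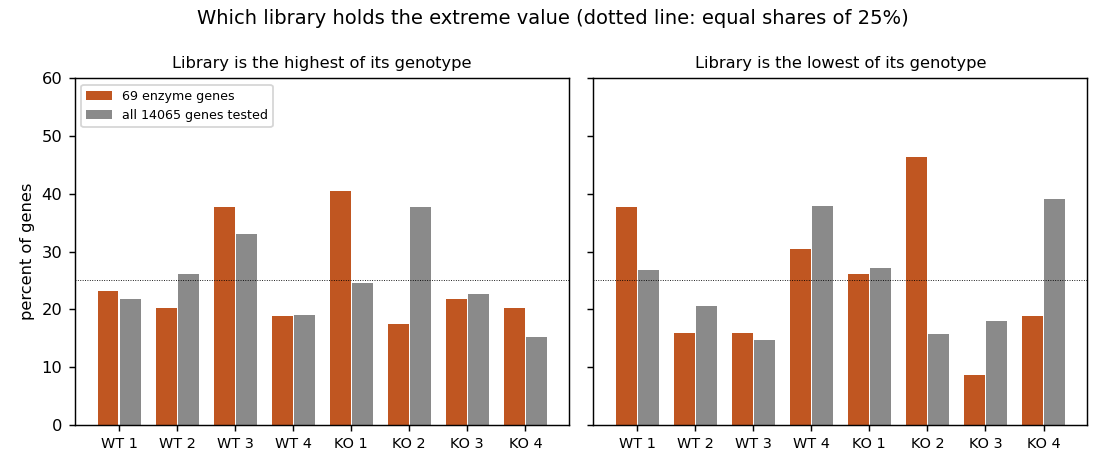
Percent of genes (vertical axis) for which each library is the highest (left) or the lowest (right) of the 4 libraries of its genotype, orange for the 69 enzyme genes and grey for all 14065 genes tested. Knockout replicate 2 is the lowest for 46.4% of the enzyme genes and 15.7% of all genes.

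Counts of called markers of lung cells are given beside the 16.6% of all genes that rose and the 14.3% that fell. Of 11 club cell markers 5 fell (Scgb3a1, Bpifb1, Muc5b, Gabrp and Reg3g), while Cyp2f2, the club cell P450 left out of the members, averaged 1198 ± 107 and 1141 ± 135 CPM and was not called. Of 10 alveolar type 2 markers 5 fell and 1 rose. Ciliated markers fell for 6 of 8, endothelial markers rose for 4 of 10 and macrophage markers for 3 of 7. Fibroblast markers rose for 2 and fell for 2 of 10, and adipocyte markers rose for 3 and fell for 2 of 9 tested. Kcnj16, Dnah5, Mcidas, Siglecf, Chil3, Adgre1 and 7 of 10 hepatocyte markers were not analysed here, and no marker with values was at 0 in all libraries. The part of these shifts in the enzyme levels was not tested.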

How the data were processed

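Lung RNA with an integrity number above 7.0 was profiled by CAGE in 8 libraries, read as 75 nt single ends, per the labels. The authors deposited CPM per gene with 2 decimals. As tools without role or order, edgeR, HISAT2 2.0.5, BWA 0.7.12-r1039 and the build mm9 are listed, per the submitters' processing notes. Not given in the sources used here are gene assignment, strand use and annotation. The 9 members that overlap another listed gene and the 13 with a close copy are therefore uncertain.

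Columns were matched to samples by title. All values (100%) were whole multiples of 1 read within 0.1 reads. Genes with at least 1 CPM in 4 libraries or more (14065, all 69 members among them) entered limma 3.58.1 in R 4.3.3 as log2(CPM + 0.5), with a variance trend, genotype as the only term and two-sided Benjamini-Hochberg adjustment over all of them. Fold changes on that scale understate those of low genes. The fit was tested on simulated data. Alternatives were pseudocounts of 0.1 and 1, no filter, a filter of 5 CPM, 2 scalings, no trend, a replicate block, leaving out each library and, chosen after seeing the data, count tests on the recovered reads: edgeR 4.0.16 called 4573 genes and DESeq2 1.42.0 called 4455.

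The members and lists were chosen with earlier results of these data known. In each enzyme group the called genes with the smallest adjusted p (up to 4 in the P450, Aldh, Ces and Fmo groups, up to 3 in others) and the most abundant gene are given by library, 25 in all, and the called genes of the pathway lists are named. The values of 1 member, counted among the 69, are not reported here. Overlaps and copies (at least 97% identity over 75 nt in the first 200 nt, blastn 2.17.0) come from GENCODE and promoters from RefSeq, both on a later build. Chi-square values between libraries of the same genotype were 11.9 to 20.1 for each gene on average, above counting noise. The p-values set the genotype difference against the spread between libraries of a genotype. Nothing says whether mice were littermates, so they may not extend beyond these samples.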

Additional observations from a re-analysis of the deposited data

Results flagged for a closer look

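Of 86 groups of 4 libraries, for the 41 genes named by the rule with Cyp1a1 and Cyp4f18, 7 held a library far from the other 3, where chance alone gives about 1 in 20 groups. Ces1f was 0.26 CPM in knockout replicate 1, against 0.54 to 0.55 CPM in the other knockout libraries. Cyp4v3 was 54.67 CPM in wild type replicate 1, against 49.19 to 49.91 CPM in the others. Ephx1 was 200.5 CPM in knockout replicate 2, against 235.42 to 240.43 CPM in the others. Dbp was 40.28 CPM in knockout replicate 1, against 4.69 to 6.21 CPM, and Tef 75.71 CPM in the same library, against 38.04 to 41.61 CPM. Both were called lower with and without that library. Nat2 was 5.92 CPM in wild type replicate 2, against 4.55 to 4.73 CPM. Ugp2 was 120.35 CPM in knockout replicate 3, against 131.73 to 134.01 CPM.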

How the results depend on the processing

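Leaving out 1 library gave 4 to 9 enzyme genes called higher (8 with all libraries) and 12 to 15 called lower (13 with all). Over all genes it gave 1741 to 2387 higher and 1552 to 2100 lower, against 2341 and 2010. The other alternatives gave 6 to 8 enzyme genes higher and 11 to 17 lower, with 2142 to 2385 of all genes higher and 1696 to 2372 lower. Of the 21 called enzyme genes, 16 held their call under every alternative that tested them. Ces1f is among the 16 but could only be lower by the filters, so it lends no support to that count. With the filter of 5 CPM Adh7 too passed only through its wild type libraries, so there it could only be lower. Its call under that filter lends no support to the 16 or to the 11 lower. The call was lost under at least 1 alternative for 5 (Cyp2a5, Akr1b10, Sult1a1, Ugt1a6a and Ugt1a7c), and 10 of the 48 others gained a call. None of the 41 genes named by the rule reversed, whereas 14 members, none of them called and Cyp1a1, Cyp2d22, Cyp2e1 and Aldh3a1 among them, had a log2 fold change of either sign depending on the alternative. The 11 lower were counted with the filter of 5 CPM, which Ces1f and Sult5a1 did not pass. The cause of the other changes was not tested, and leaving out a library also leaves fewer samples. With the replicate block 8 enzyme genes were called higher and 15 lower (2384 and 2014 of all genes). Libraries with the same number correlated by -0.00 to 0.06 in their deviations from the group means, and those with different numbers by -0.13 to 0.12. These values show no pairing by number but cannot exclude one, and the labels do not say. Median-ratio scaling moved the median log2 fold change of all genes from 0.01 to -0.01. At the depth of these libraries values near the floor of 3 reads, as for Ces1f in the knockout, are imprecise.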
